A study of Mus musculus with 16 samples.

Results

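The proteasome subunit genes are the mouse genes whose symbols begin with Psma, Psmb, Psmc or Psmd followed by a number, with the immunoproteasome genes Psmb8, Psmb9 and Psmb10 left out. The rule uses names alone and no measured value. It found 36 genes among the 23420 symbols measured: 16 core genes (8 Psma, 8 Psmb) and 20 regulatory genes (6 Psmc, 14 Psmd). Polyadenylated RNA was counted in 16 libraries from 8 male C57BL/6 mice. The 4 groups of 4 libraries are adipocytes of knockout-labelled mice, adipocytes of wild-type mice, liver of knockout-labelled mice and liver of wild-type mice. Knockout means an adipocyte-specific loss of Trib1, which encodes the pseudokinase tribbles 1. The labels name neither an allele nor what drives the deletion, and give wild-type mice no transgene. Adipocytes were freed from subcutaneous fat by collagenase, whereas liver was extracted whole. The same mouse gave both tissues, and each mouse is 1 replicate. Of the knockout-labelled mice 2 were 76 days old (KO-1137, KO-1139) and 2 were 70 days old (KO-1151, KO-1152). Of the wild-type mice 3 were 76 days old (WT-1135, WT-1136, WT-1138) and 1 was 70 days old (WT-1153).

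The proteasome is the protease that degrades proteins tagged with ubiquitin. Its core is a barrel of stacked rings, in which the Psma genes encode the outer alpha subunits and the Psmb genes the inner beta subunits, 3 of which (Psmb5, Psmb6, Psmb7) carry the catalytic sites. The regulatory particle caps the barrel: Psmc genes encode its ATPase ring, and Psmd genes its scaffolds, lid, ubiquitin receptor and deubiquitinase. In immune cells and under interferon, Psmb8, Psmb9 and Psmb10 can take the places of Psmb5, Psmb6 and Psmb7. Psma8 is known from testis and Psmb11 from thymus.

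Total counts ran from 28560887 to 53716669 per library, of which the 36 genes took 0.282% to 0.363%. Leaving out Psma8 and Psmb11, a member had 223 to 12239 counts in a library. Trib1 was not lower in knockout-labelled adipocytes: it had 1071, 1273, 1408 and 1344 CPM (read counts scaled to a common library size) in knockout-labelled libraries, against 751, 924, 1225 and 1292 CPM in wild-type libraries. Its fitted log2 difference was 0.28 ± 0.18 (SE; edgeR adjusted p = 0.241), and the deleted stretch of the gene is not given, so Trib1 counts do not check the labels. The 12 adipocyte markers summed to 65759 to 73955 CPM in knockout-labelled and 47154 to 67727 CPM in wild-type adipocyte libraries. The 10 hepatocyte markers summed to 107066 to 132030 CPM in knockout-labelled and 102098 to 131188 CPM in wild-type livers. Markers of other fat-pad cells were lower in knockout-labelled adipocytes: 9 of 9 endothelial, 7 of 8 mural and 9 of 10 fibroblast and progenitor genes were called lower. Endothelial markers summed to 186 to 423 CPM in knockout-labelled and 684 to 1927 CPM in wild-type libraries. Fibroblast and progenitor markers summed to 743 to 1371 CPM in knockout-labelled and 1714 to 1818 CPM in wild-type libraries. Mural markers summed to 458 to 581 CPM in knockout-labelled and 556 to 734 CPM in wild-type libraries, and none of these genes was at 0 in all 8 libraries.

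Proteasome subunit RNA was higher in adipocytes of knockout-labelled mice with TMM scaling (a trimmed mean of ratios, used throughout), and less so with library totals, where 2 subunits were called. Of the 36 genes, 34 passed the filter on low counts, and 18 of these rose (52.9%) while 0 fell. An adjusted p under 0.05 in edgeR's quasi-likelihood test over 13795 genes counts as a call here. Of all genes tested 18% were called higher and 17.1% lower, 35.2% in all. The median log2 difference over the 34 genes was 0.28, against -0.01 over all genes tested. Each of the 34 estimates was above 0 with TMM scaling, whereas 23 of 34 were above 0 when libraries were scaled by their totals alone. That scaling lowered the median of all genes to -0.20. All 34 subunits lay above the median of all genes in both fits. Scaling shifts all genes nearly alike, so this position could hardly change and is no check on scaling. By class, 13 of 20 regulatory genes rose (median 0.30) and 5 of 14 tested core genes rose (median 0.26), a gap not tested itself. In bulk RNA, fewer cells of a type and less RNA per cell cannot be told apart.

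**Figure D1:**
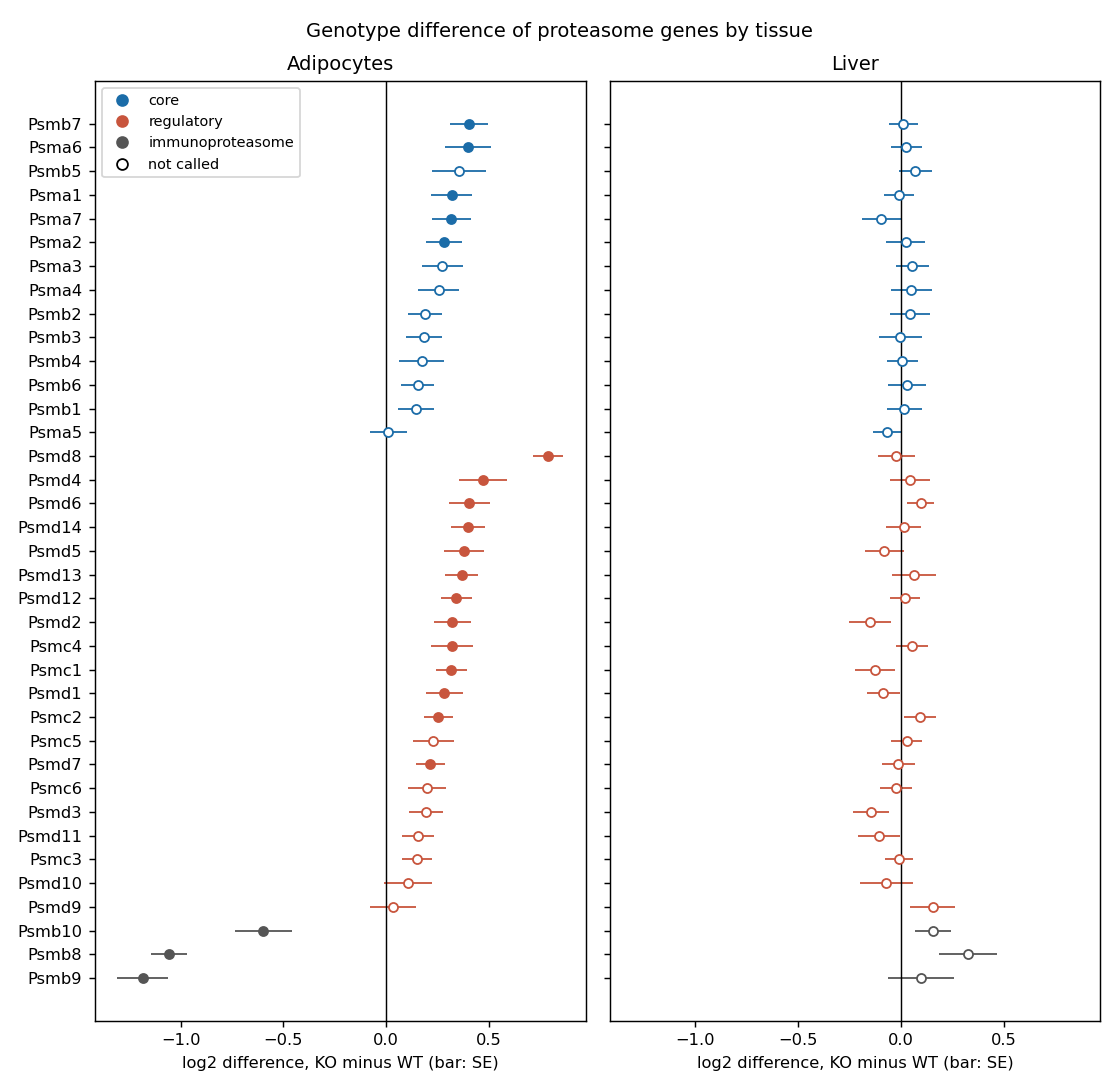
Fitted log2 differences (knockout-labelled minus wild-type, horizontal axis, bars 1 SE, 4 mice a group) of the subunits tested in adipocytes and of 3 immunoproteasome genes, in adipocytes on the left and liver on the right. Filled points have an adjusted p under 0.05: 18 subunits lie to the right of 0 and 3 immunoproteasome genes to the left in adipocytes, and 0 are filled in liver. Scaled by library totals, 23 of the 34 adipocyte estimates of subunits stayed above 0.

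Psmd8, a subunit of the lid, had the largest difference and the smallest p of the 34. Its CPM was 205, 203, 207 and 220 in knockout-labelled adipocytes, against 115, 131, 114 and 124 in wild-type adipocytes. The lowest knockout-labelled value was far above the highest wild-type value. The log2 difference was 0.79 ± 0.07 (SE), or 1.73-fold, with an adjusted p of 0.000143 by edgeR. It was called in each of the 19 alternative settings and leave-one-out fits, at 0.60 to 0.83.

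Subunits that handle ubiquitin were among those that rose. Psmd14, the deubiquitinase that removes ubiquitin chains from substrates, had 98.1, 111, 99.2 and 110.2 CPM in knockout-labelled adipocytes, against 69.8, 84.1, 80.2 and 83.1 CPM in wild-type adipocytes. The groups did not overlap, as was the case for 18 of the 34 subunits, all in the higher direction (background over all genes 18.7% higher and 15.2% lower). Its log2 difference was 0.40 ± 0.08 (edgeR adjusted p = 0.00591). Psmd4, which binds ubiquitin chains, had 178, 191, 173 and 178 CPM in knockout-labelled adipocytes, against 115, 164, 118 and 123 CPM in wild-type adipocytes. Mouse WT-1136 stood apart from the other 3 wild-type mice, yet below every knockout-labelled mouse. The log2 difference of Psmd4 was 0.47 ± 0.12 (edgeR adjusted p = 0.0124).

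Further lid and scaffold subunits were measured beside these. Among other lid genes, Psmd13 rose by 0.37 ± 0.08, Psmd12 by 0.34 ± 0.08 and Psmd6 by 0.40 ± 0.10 on the log2 scale (edgeR adjusted p 0.00758, 0.00763 and 0.0124). Psmd12 had 82.3, 94.6, 87.3 and 92.4 CPM in knockout-labelled adipocytes, against 66.0, 74.9, 67.5 and 73.4 CPM in wild-type adipocytes, without overlap. The scaffold Psmd2, one of the largest subunits of the base, had 240.1, 254, 227 and 234 CPM in knockout-labelled adipocytes, against 176, 219, 180.4 and 188 CPM in wild-type adipocytes. Its log2 difference was 0.32 ± 0.09 (edgeR adjusted p = 0.0193). The other scaffold, Psmd1, rose by 0.28 ± 0.09, and its exons share 301 bases with those of Gm21972 on the same strand. Psmd3 and Psmd11, further lid genes, had log2 differences of 0.20 ± 0.08 and 0.15 ± 0.08 and missed the threshold.

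Of the 6 ATPase genes 3 rose (50%, against 18% of all genes tested). Psmc1 had 136, 141, 129.8 and 151 CPM in knockout-labelled adipocytes, against 104, 119, 109.5 and 115 CPM in wild-type adipocytes, again without overlap. Its log2 difference was 0.32 ± 0.08 (edgeR adjusted p = 0.0111), and those of Psmc2 and Psmc4 were 0.25 ± 0.07 and 0.32 ± 0.10. Psmc3, Psmc5 and Psmc6 had estimates of 0.15 to 0.23 and were not called.

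Among the 3 genes of assembly chaperones of the regulatory particle only Psmd5 was called, where 18% of all genes tested were called higher. Psmd5 had 36.5, 46.5, 38.3 and 40.1 CPM in knockout-labelled adipocytes, against 28.3, 34.7, 31.1 and 29.9 CPM in wild-type adipocytes, a log2 difference of 0.38 ± 0.10 (edgeR adjusted p = 0.0155). Psmd9 and Psmd10 had log2 differences of 0.03 ± 0.11 and 0.11 ± 0.12, and their groups overlapped. That Psmd5 was called and the other 2 were not does not show that they differ, which was not tested.

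The promoters of 5 of these genes are printed to let the sequences be read beside the values: the 3 subunits with the smallest p that have an entry (Psmd8, Psmd14, Psmd13), Psmd9 with little difference, and Psmb8 of the immunoproteasome. Each runs 5′ to 3′ over 250 bases before and 50 bases from the RefSeq start of the gene on build GRCm38.p6. For Psmd9, Psmd13 and Psmb8 the GENCODE M21 start of the gene (123169413, 140881968 and 34197721) lies upstream of the printed window. Capitals mark every match, on either strand, to any of 13 motifs named below.
Psmd8, chr7:29180624-29180923, minus strand: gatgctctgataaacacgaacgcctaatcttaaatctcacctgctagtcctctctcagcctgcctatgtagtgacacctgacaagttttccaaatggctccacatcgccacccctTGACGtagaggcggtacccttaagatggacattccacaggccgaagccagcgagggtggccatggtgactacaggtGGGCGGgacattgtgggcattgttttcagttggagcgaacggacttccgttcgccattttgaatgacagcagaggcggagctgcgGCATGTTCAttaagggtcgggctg
Psmd14, chr2:61711444-61711743, plus strand: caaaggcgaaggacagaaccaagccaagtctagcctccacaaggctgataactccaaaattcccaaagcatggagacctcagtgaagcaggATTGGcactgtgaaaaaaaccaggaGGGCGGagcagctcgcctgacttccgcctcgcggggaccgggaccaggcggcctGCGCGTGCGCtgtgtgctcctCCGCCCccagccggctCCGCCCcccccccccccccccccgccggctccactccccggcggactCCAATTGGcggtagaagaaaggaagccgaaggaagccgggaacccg
Psmd13, chr7:140882144-140882443, plus strand: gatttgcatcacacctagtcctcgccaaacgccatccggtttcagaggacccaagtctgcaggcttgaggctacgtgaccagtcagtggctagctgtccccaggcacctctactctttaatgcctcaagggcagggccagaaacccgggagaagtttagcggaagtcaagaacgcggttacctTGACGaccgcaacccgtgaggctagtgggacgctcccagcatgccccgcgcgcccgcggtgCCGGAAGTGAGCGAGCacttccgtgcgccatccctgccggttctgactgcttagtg
Psmd9, chr5:123227940-123228239, plus strand: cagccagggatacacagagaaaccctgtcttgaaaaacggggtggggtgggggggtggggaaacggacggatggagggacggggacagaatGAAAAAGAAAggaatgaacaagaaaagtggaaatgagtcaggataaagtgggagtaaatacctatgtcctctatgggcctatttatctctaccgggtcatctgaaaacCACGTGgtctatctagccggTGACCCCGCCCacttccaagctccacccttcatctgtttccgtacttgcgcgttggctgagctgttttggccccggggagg
Psmb8, chr17:34197945-34198244, plus strand: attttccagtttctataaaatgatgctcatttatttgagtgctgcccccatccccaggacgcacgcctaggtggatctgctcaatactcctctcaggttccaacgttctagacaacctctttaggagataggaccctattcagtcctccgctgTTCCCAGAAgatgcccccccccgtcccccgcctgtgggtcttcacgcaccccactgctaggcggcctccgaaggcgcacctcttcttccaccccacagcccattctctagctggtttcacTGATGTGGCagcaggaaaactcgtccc

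RefSeq promoters were matched for 29 of the 36 members, and the 13 motifs were searched on both strands in them and in all 27025 promoters of the table. The GC box GGGCGG was in 18 of 29 member promoters (62.1%), against 35.9% of all promoters. The ETS site CCGGAAG was in 9 (31.0%), against 9.12% of all, and TGACG, a part of the cyclic AMP response element, in 13 (44.8%), against 21.0% of all. The nuclear respiratory factor 1 site was in 6 (20.7%), against 4.78% of all. The antioxidant response element, bound by the factors Nfe2l1 and Nfe2l2, was searched in both forms: TGACNNNGC was in 5 (17.2%) against 12.5%, and the shorter TGANNNNGC, which contains every such match, in 16 (55.2%) against 41.4%. CCAAT was in 12 (41.4%) against 37.9%, the interferon response motif in 3 (10.3%) against 3.49%, CACGTG (E-box) in 2 (6.90%) against 7.24%, and TTCNNNGAA (STAT site) in 1 (3.45%) against 8.47%. The TFEB-type E-box, the whole cyclic AMP response element TGACGTCA and the forkhead site GTAAACA were in 0 of the 29, against 0.359%, 1.88% and 3.55% of all promoters. TGACG is also part of TGACGTCA, and CACGTG of the TFEB-type E-box. Of the 16 members with a promoter called higher in adipocytes 7 held the ETS site and 1 held TGACNNNGC, and of the 12 tested but not called 2 and 4 did. In the same order, the GC box was in 11 and 7, TGACG in 8 and 5, CCAAT in 8 and 3, and TGANNNNGC in 7 and 8. The nuclear respiratory factor 1 site was in 3 and 3, the interferon motif in 1 and 2, the STAT site in 1 and 0, and CACGTG in 0 and 2. No such split was tested. A match here is a string of letters and not a bound site. The background was not limited to expressed genes or matched for base composition. Whether any excess is particular to proteasome genes was therefore not tested.

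The core genes split into outer alpha and inner beta subunits, whose counts of calls were not tested against each other. Of 7 tested Psma genes 4 rose (57.1%, against 18% of all genes tested). These were Psma6 by 0.40 ± 0.11, Psma1 by 0.32 ± 0.10, Psma7 by 0.32 ± 0.10 and Psma2 by 0.28 ± 0.09 on the log2 scale. Psma6 had 150.5, 172, 151 and 177 CPM in knockout-labelled adipocytes, against 103, 143, 117 and 130.01 CPM in wild-type adipocytes (edgeR adjusted p = 0.0216). Psma5 stood at 0.01 ± 0.09, the smallest estimate of the 34.

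Of 7 tested Psmb genes only the catalytic Psmb7 was called (14.3%, where 18% of all genes tested were called higher). By calls the Psmb genes thus did not stand out from all genes. Psmb7, the trypsin-like site, had 152, 167, 148 and 171 CPM in knockout-labelled adipocytes, against 107, 130.5, 113 and 133 CPM in wild-type adipocytes, without overlap. Its log2 difference was 0.40 ± 0.09 (edgeR adjusted p = 0.00971). Exons of Psmb7 overlap those of Nek6 on the other strand, whose own difference was 0.39 ± 0.14, and without a stated strand setting the reads of the 2 genes cannot be told apart there. Exons of Psmd13 likewise overlap Sirt3, which stood at 0.07 ± 0.11. Psmb5, the chymotrypsin-like site, had 45.2, 50.8, 42.4 and 46.1 CPM in knockout-labelled adipocytes, against 33.6, 46.8, 30.5 and 33.5 CPM in wild-type adipocytes. Mouse WT-1136 overlapped the knockout-labelled range, and the log2 difference of 0.35 ± 0.13 missed the threshold (edgeR adjusted p = 0.0597). Psmb6, the caspase-like site, had a log2 difference of 0.15 ± 0.08 (edgeR adjusted p = 0.162). The other 4 (Psmb1, Psmb2, Psmb3, Psmb4) ran from 0.15 to 0.19. Psmb5, Psmb6 and Psmb7 have pseudogenes annotated under their own symbols (1, 2 and 1), with which reads could be shared. Pseudogenes under other symbols were not searched for any subunit.

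**Figure D2:**
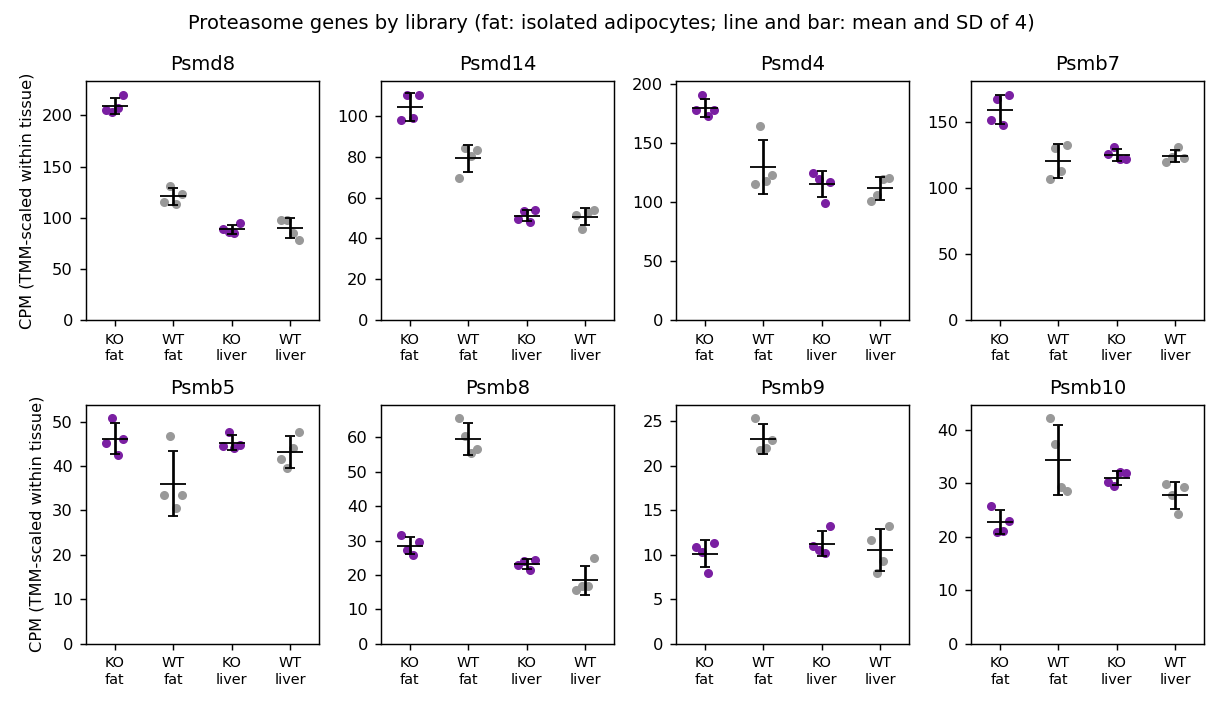
CPM of 5 subunits and 3 immunoproteasome genes in each library (vertical axes from 0, TMM-scaled within each tissue), with the mean and SD of 4 mice. In adipocytes (fat) Psmd8, Psmd14, Psmd4 and Psmb7 separate knockout-labelled from wild-type libraries upwards, and Psmb8, Psmb9 and Psmb10 downwards. In liver the groups overlap for each of the 8 genes.

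The inducible catalytic genes ran the other way. Psmb8 had 31.5, 27.4, 25.8 and 29.6 CPM in knockout-labelled adipocytes, against 65.6, 60.4, 55.4 and 56.5 CPM in wild-type adipocytes, a log2 difference of -1.06 ± 0.09 (edgeR adjusted p = 8.02e-05). Psmb9 had 10.9, 10.3, 7.91 and 11.3 CPM in knockout-labelled adipocytes, against 25.4, 21.8, 21.98 and 22.9 CPM in wild-type adipocytes, a log2 difference of -1.19 ± 0.12 (edgeR adjusted p = 0.000215). Psmb10 had 25.8, 20.9, 21.1 and 22.9 CPM in knockout-labelled adipocytes, against 42.1, 37.3, 29.3 and 28.5 CPM in wild-type adipocytes, a log2 difference of -0.60 ± 0.14 (edgeR adjusted p = 0.00915). All 3 groups of values were free of overlap, and all 3 genes were also called lower under library totals. With the stromal marker score of each library as a covariate, Psmb8 alone of the 3 was called, at -0.77 (adjusted p of 0.0260 by edgeR), while Psmb9 stood at -0.87 and Psmb10 at -0.09. That score, described below, did not overlap between genotypes, so this fit cannot tell its part from that of genotype. Exons of Psmb9 overlap those of Tap1 on the other strand, which fell by 0.53 on the log2 scale. Psmb8 exons share 186 bases with those of Gm20496 on the other strand. Lymphocyte markers summed to 5.67 to 18.9 CPM in knockout-labelled and 11.9 to 27.8 CPM in wild-type adipocytes (2 of 8 called lower). Macrophage markers summed to 91.1 to 486 CPM in knockout-labelled and 196 to 439 CPM in wild-type adipocytes (0 of 9 called). Endothelial markers summed to 186 to 423 CPM in knockout-labelled and 684 to 1927 CPM in wild-type adipocytes (9 of 9 called lower). The part of these cell types in the differences of the 3 genes was not tested.

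Ratios within a library do not depend on scaling. Psmb8 counts were 0.540 to 0.696 times those of Psmb5 in knockout-labelled adipocytes and 1.29 to 1.95 times in wild-type adipocytes. Psmb9 counts were 0.0749 to 0.103 times those of Psmb6 in knockout-labelled adipocytes and 0.197 to 0.267 times in wild-type adipocytes. Psmb10 counts were 0.125 to 0.170 times those of Psmb7 in knockout-labelled adipocytes and 0.215 to 0.395 times in wild-type adipocytes. For each ratio the groups were apart, with an exact two-sided permutation p of 0.0286, the smallest that 4 against 4 allows, and 0.0571 after adjustment over 6 ratios. In liver the 3 ratios overlapped between genotypes, with exact permutation p of 0.114, 0.571 and 0.257. Wild-type adipocytes were the one group whose libraries held more Psmb8 than Psmb5 counts.

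**Figure D3:**
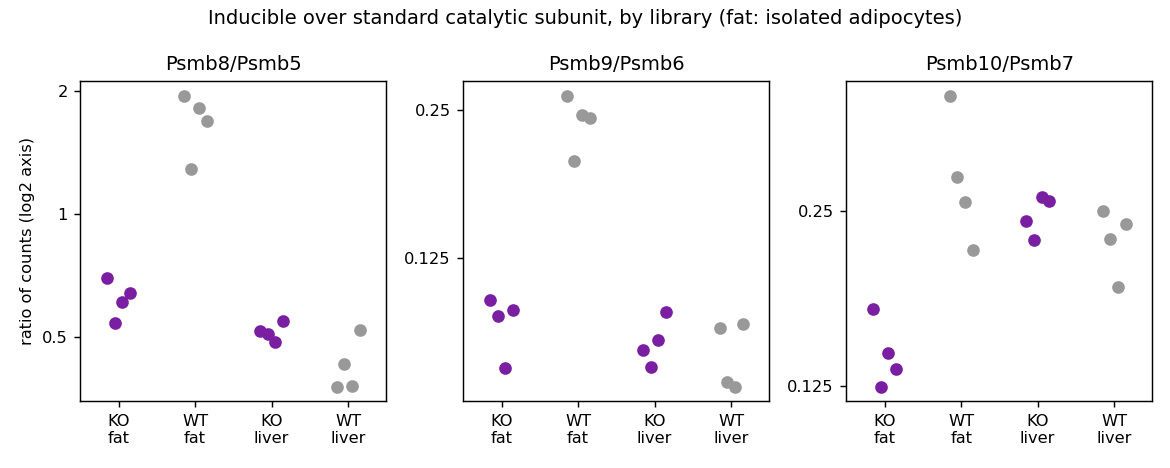
Ratio of counts of each inducible catalytic gene to the standard gene it can replace, per library on a log2 axis, with 4 mice in each of 4 groups. In adipocytes (fat) the knockout-labelled points lie below the wild-type points for all 3 ratios, and in liver the groups overlap.

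Of 42 further pathway and immunoproteasome genes 15 rose (35.7%) and 3 fell (7.14%) in knockout-labelled adipocytes, where 18% of all genes tested were called higher and 17.1% lower. Of 12 genes for other particle subunits and ubiquitin receptors 8 rose (66.7%) and 0 fell. Ubqln1, a shuttle that carries ubiquitinated proteins to the proteasome, had 442, 401, 443 and 433 CPM in knockout-labelled adipocytes, against 226, 268, 260.1 and 267 CPM in wild-type adipocytes, a log2 difference of 0.75 ± 0.09. The related shuttle gene Ubqln4 rose by 0.49 ± 0.08, and Txnl1, a thioredoxin bound to the regulatory particle, by 0.42 ± 0.07. Of 11 genes of transcriptional control 3 rose (27.3%) and 0 fell. Ddi2, the protease that cleaves and activates the proteasome gene activator Nfe2l1, had 34.2, 30.3, 26.9 and 32.2 CPM in knockout-labelled adipocytes, against 15.7, 15.5, 19.8 and 17.1 CPM in wild-type adipocytes, a log2 difference of 0.86 ± 0.11 (edgeR adjusted p = 0.000617). RNA of Nfe2l1 itself stood at 0.08 ± 0.09 with overlapping groups. Of 5 genes of activators and inhibitor 2 rose (40%), among them the cap subunit Psme1 by 0.34 ± 0.09, whereas its partner Psme2 stood at 0.13 ± 0.11. Of 5 assembly factors 1 rose (20%), and of 6 genes for ubiquitin and its activating enzymes 1 rose (16.7%), shares near that of all genes.

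How many subunits were called depended on the libraries and the model. DESeq2 and limma-voom each called 19, and halved counts gave 18. A fit with all 16 libraries called 22, and age as a covariate left 16. Without mouse WT-1135, WT-1138, KO-1139 or KO-1152 the adipocyte count was 10, 9, 9 and 10, and over the 8 leave-one-out fits it ran from 9 to 21. The share of all genes called in each refit of this paragraph is not given here. Whether subunits lost more calls than other genes therefore cannot be read from these counts. Scaling by library totals left 2 calls (Psmd14 and Psmd8) and a median of 0.09. With that scaling 24.9% of all called genes were higher, against 51.3% with TMM. With the stromal score as a covariate 1 call was left (Psmd8): the score, the mean log2 CPM of 27 endothelial, mural and fibroblast genes, was 3.93 to 5.13 in knockout-labelled and 5.45 to 6.65 in wild-type adipocytes. The median over the subunits then stood at 0.18, against 0.03 over all genes tested, a gap of 0.15 where it was 0.29 without the covariate. Of the 34 estimates 29 were above 0 and 5 below, and 6 lay below the median of all genes. The median SE was 0.183 with the covariate and 0.0901 without it. Because the score did not overlap between genotypes, this fit cannot tell its part from that of genotype. The part of other cells in these results was not tested further. In mice taken at 76 days, 2 knockout-labelled against 3 wild-type, 1 was called (Psmd8) and the median was 0.29. The 70-day mice, 2 knockout-labelled and 1 wild-type, were too few for a value of their own.

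Subunit levels were also compared by mouse. The median of the 34 genes relative to the wild-type mean was 0.19, 0.34, 0.19 and 0.34 on the log2 scale in knockout-labelled adipocytes (KO-1137, KO-1139, KO-1151, KO-1152), against -0.12, 0.14, -0.09 and 0.03 in wild-type adipocytes (WT-1135, WT-1136, WT-1138, WT-1153). In mouse WT-1136, 33 of 34 subunits (97.1%) were above the wild-type mean, against 43.6% of all genes tested. In WT-1135 it was 2 of 34 (5.88%), against 52.1% of all genes. No test was made of this spread within wild-type mice. The knockout-labelled medians lay above all wild-type medians.

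**Figure D4:**
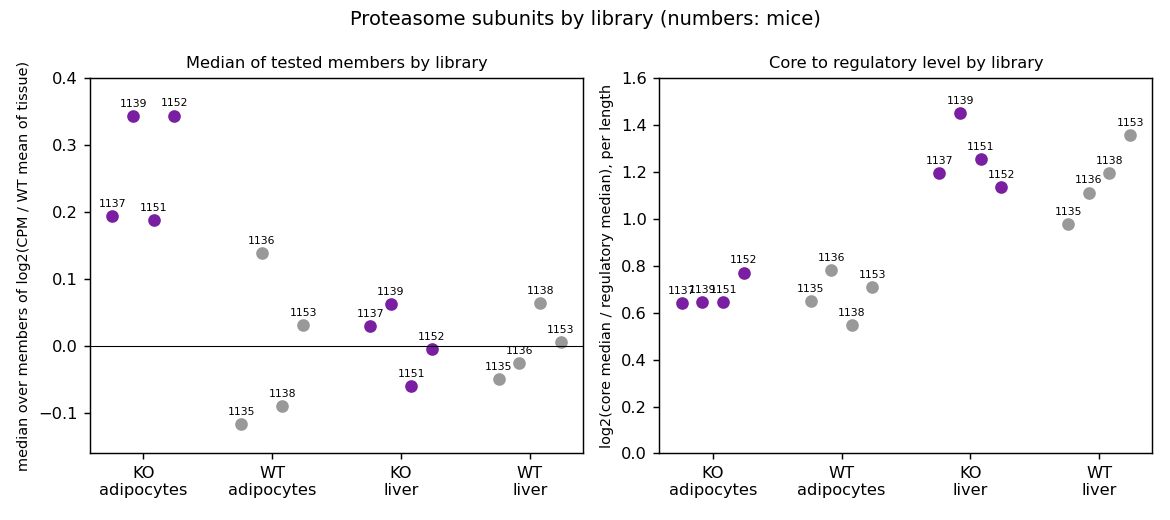
Left, the median over tested subunits of log2(CPM over the wild-type mean of that tissue) per library, with mouse numbers. The 4 knockout-labelled adipocyte medians (0.19 to 0.34) lie above the 4 wild-type ones (-0.12 to 0.14), and the liver groups overlap. Right, log2 of the median core over the median regulatory level per kilobase, between 0.55 and 0.78 in adipocytes and between 0.98 and 1.45 in liver.

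Liver of the same mice showed no called difference. Of the 35 subunits tested in liver (Psmb11 had 0 counts in all 8 livers) 0 were called in either direction by edgeR, where 0.0226% of all genes were called higher and 0% lower. One subunit, Psmd6, had groups that did not overlap, in the higher direction (background 2.36% higher and 2.3% lower). At an unadjusted p under 0.05 the count was also 0, where 1146 of the 13288 genes tested in liver had such a p. DESeq2 and limma-voom called 0 subunits, and their share of all genes called is not given here. The log2 differences ran from -0.15 to 0.15, with a median of 0.01. The subunit with the smallest p, the lid gene Psmd3, had 81.3, 71.6, 70.5 and 81.2 CPM in knockout-labelled livers, against 93.9, 83.7, 80.0 and 79.7 CPM in wild-type livers (edgeR adjusted p = 0.671). Its groups overlapped. Psmd2, Psmd6 and Psmd9 had log2 differences of -0.15 ± 0.10, 0.10 ± 0.07 and 0.15 ± 0.11 in liver. Psmd8 had 88.8, 85.9, 84.8 and 94.8 CPM in knockout-labelled livers, against 98.2, 98.0, 85.3 and 78.3 CPM in wild-type livers, a log2 difference of -0.02 ± 0.09. The 95% interval of Psmd8 in liver, from -0.20 to 0.16, lay below its adipocyte value. Psmb8, Psmb9 and Psmb10 had liver differences of 0.33 ± 0.14, 0.10 ± 0.16 and 0.16 ± 0.09, none of them called.

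The difference between the adipocyte and the liver effect was tested directly over 16 libraries. The adipocyte effect exceeded the liver effect for 10 of 35 subunits and fell short for 0 (10.4% of all genes tested were called in the higher direction and 8.73% in the lower, 19.1% in all). Of these 8 were regulatory genes: Psmd8 (0.83 ± 0.12), Psmc1 (0.47 ± 0.13), Psmd5 (0.48 ± 0.14), Psmd14 (0.41 ± 0.12), Psmd2 (0.50 ± 0.15), Psmd12 (0.34 ± 0.10), Psmd1 (0.39 ± 0.12) and Psmd3 (0.37 ± 0.12). The core genes were Psmb7 (0.41 ± 0.12) and Psma7 (0.43 ± 0.14). Psmd3 was not called in adipocytes alone. A liver estimate below 0 adds to such a difference, for example in Psmd2 and Psmd3. For Psmd8 the adjusted p was 0.000416 by edgeR, and the call held in each of 23 alternatives. The median over subunits was 0.29, against -0.01 over all genes. Psmb8, Psmb9 and Psmb10 differed between tissues in the other direction, by -1.36 ± 0.17, -1.26 ± 0.21 and -0.73 ± 0.17 (edgeR adjusted p 0.000121, 0.00105 and 0.00806). With the mouse as a block, since both tissues came from the same mice, 4 subunits were called, and with library totals 1. Without the adipocyte library of KO-1139, KO-1152, WT-1135, WT-1136 or WT-1138 the count was 2, 5, 4, 18 and 5, and without the liver library of KO-1151 it was 5. For these refits too the share of all genes called is not given here.

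Levels were compared between tissues by class. Per kilobase of transcript, core genes had a median of 75.1 ± 4.51 CPM per kb in knockout-labelled adipocytes and 63.5 ± 7.17 in wild-type adipocytes, against 114 ± 6.30 in knockout-labelled livers and 111 ± 5.07 in wild-type livers (SD over 4 mice, 14 genes). Regulatory genes had medians of 47.0 ± 1.89 and 39.7 ± 2.27 CPM per kb in knockout-labelled and wild-type adipocytes, against 47.6 ± 2.26 and 49.8 ± 3.41 in knockout-labelled and wild-type livers (20 genes). The log2 ratio of the core to the regulatory median was 0.68 ± 0.06 and 0.67 ± 0.10 in knockout-labelled and wild-type adipocytes, against 1.26 ± 0.14 and 1.16 ± 0.16 in knockout-labelled and wild-type livers. No adipocyte library reached the ratio of the lowest liver library. The genotype groups overlapped in both tissues.

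In knockout-labelled mice 20 of 35 subunits were lower and 9 higher in adipocytes than in liver (39.3% and 40.4% of all genes tested, 79.8% in all). In wild-type mice 25 of 35 were lower and 0 higher (37.2% and 40.5% of all genes tested, 77.6% in all). In knockout-labelled mice 21 subunits were lower and 9 higher without overlap (background 37.1% and 38.3%), and in wild-type mice 23 were lower and 0 higher (background 35.2% and 38.2%). By the labels, RNA from fat was accepted at a lower integrity number than RNA from liver, and its part in tissue differences cannot be told apart from tissue. These tissue calls hold for TMM scaling: with library totals 12 were lower and 15 higher in knockout-labelled mice, and 9 lower and 14 higher in wild-type mice. That scaling moved the median of all genes to 0.42 in knockout-labelled and 0.71 in wild-type mice, where it stood at 0.00 and 0.06 with TMM. Of all called genes 65.0% in knockout-labelled and 73.4% in wild-type mice were then higher, against 50.7% and 52.2% with TMM. Relative to the median of all genes, the median subunit lay at -0.38 in knockout-labelled and -0.65 in wild-type mice with TMM, and at -0.38 and -0.66 with library totals. Because scaling shifts all genes nearly alike, these values could hardly differ and are no check on scaling. With TMM, core genes (15 tested, Psma8 included) had medians of -0.51 in knockout-labelled and -0.83 in wild-type mice, and regulatory genes 0.11 and -0.30. The median of core less that of regulatory genes was -0.61 in knockout-labelled and -0.53 in wild-type mice, which share no library.

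Psmd9 stood furthest from the other regulatory genes. It had 16.8, 19.4, 15.1 and 16.6 CPM in knockout-labelled adipocytes, against 58.0, 64.2, 57.5 and 63.2 CPM in knockout-labelled livers. In wild-type mice it had 15.9, 19.96, 16.1 and 18.1 CPM in adipocytes, against 49.2, 69.1, 60.0 and 55.0 CPM in liver. The log2 differences of adipocytes from liver were -1.84 ± 0.09 in knockout-labelled and -1.74 ± 0.13 in wild-type mice (edgeR adjusted p 1.26e-08 and 2.66e-07), called under each alternative at -1.09 or lower. Of the other 2 chaperones, Psmd10 stood at 0.38 ± 0.12 and 0.18 ± 0.14 and Psmd5 at 0.26 ± 0.09 and -0.22 ± 0.11 in knockout-labelled and wild-type mice. Psmc4, the ATPase with the lowest tissue difference, had log2 differences of -0.90 ± 0.08 and -1.19 ± 0.11. The alpha subunit Psma4 had -0.95 ± 0.08 and -1.18 ± 0.13, and the beta subunit Psmb3 -0.89 ± 0.08 and -1.10 ± 0.12. The subunit highest in adipocytes against liver in knockout-labelled mice was Psmd8, at 0.72 ± 0.07, which stood at -0.11 ± 0.10 in wild-type mice. Psmd14 had 79.0, 89.1, 81.8 and 89.0 CPM in knockout-labelled adipocytes, against 57.4, 61.8, 56.0 and 62.7 CPM in knockout-labelled livers, a log2 difference of 0.51 ± 0.07. In wild-type mice its difference was 0.10 ± 0.10, and the tissues overlapped.

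**Figure D5:**
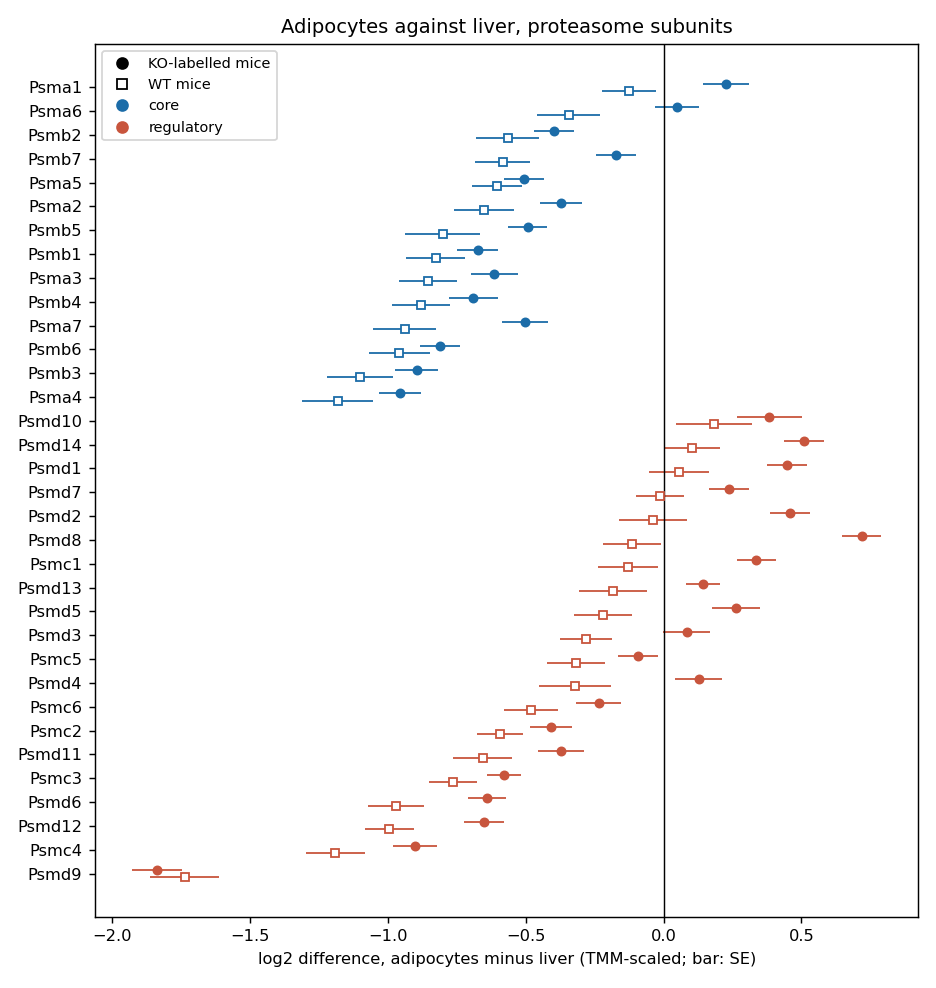
Fitted log2 differences of adipocytes from liver (horizontal axis, bars 1 SE, TMM-scaled) for 34 subunits in knockout-labelled mice (filled circles) and wild-type mice (open squares), 4 mice a group. Psma8, which had few counts, is not drawn. Of the points drawn Psmd9 lies leftmost, the 20 regulatory genes have medians of 0.11 in knockout-labelled and -0.30 in wild-type mice, and scaling by library totals would shift the median of all genes to 0.42 in knockout-labelled and 0.71 in wild-type mice.

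Catalytic and inducible genes were also set against liver. Psmb5, Psmb6 and Psmb7 had log2 differences of -0.49 ± 0.07, -0.81 ± 0.07 and -0.17 ± 0.07 in knockout-labelled mice and -0.80 ± 0.14, -0.96 ± 0.11 and -0.58 ± 0.10 in wild-type mice. Each was called lower except Psmb7 in knockout-labelled mice, and with library totals Psmb7 stood above 0 in both genotypes. Psmb8 was higher in adipocytes than in liver in wild-type mice, at 1.14 ± 0.15 (edgeR adjusted p = 3.17e-05), and lower in knockout-labelled mice, at -0.22 ± 0.08 (edgeR adjusted p = 0.0303), where library totals gave 0.20. That lower call was lost without the adipocyte library of KO-1139 or KO-1151, without the liver library of KO-1139 or KO-1152, and without the filter on low counts (edgeR adjusted p up to 0.0966). Psmb9 stood at -0.68 ± 0.13 in knockout-labelled mice, a call lost with library totals, and at 0.58 ± 0.16 in wild-type mice. Psmb10 was called lower in knockout-labelled mice (-0.97 ± 0.09) and not called in wild-type mice, where it stood at -0.24 ± 0.14 with TMM and 0.42 with library totals. Per kilobase, the most abundant subunit of both liver groups was Psmb6, at 199.5 ± 12.2 CPM per kb in knockout-labelled and 196 ± 19.1 in wild-type livers. In knockout-labelled adipocytes Psma6 led (131 ± 9.45), and Psmb7 (116 ± 6.82), Psmd8 (115 ± 4.47), Psmb6 (115 ± 4.23), Psma1 (114 ± 9.42) and Psmd4 (114 ± 3.54) followed, within their spread of each other. In wild-type adipocytes Psmb6 (102 ± 10.8) and Psma6 (98.2 ± 15.2) led, and Psmd8 stood at 65.7 ± 5.25, rank 9 of the 36.

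The tissue-restricted members were near 0. Psma8 had 2 to 8 counts per library in knockout-labelled adipocytes and 2 to 23 in wild-type adipocytes, against 14 to 89 in knockout-labelled livers and 20 to 74 in wild-type livers. Its log2 differences of adipocytes from liver, -3.81 ± 0.58 and -2.26 ± 0.55 in knockout-labelled and wild-type mice, rest on these counts. Psmb11 had 0 to 6 counts in knockout-labelled adipocytes and 2 to 8 in wild-type adipocytes. In all 8 livers it had 0 counts, which allows up to 0.0613 to 0.105 CPM in knockout-labelled and 0.0649 to 0.0969 CPM in wild-type livers (3 counts per library, counting error only).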

How the data were processed

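RNA of 16 libraries was measured as read counts per gene symbol. The deposited counts were made from reads demultiplexed with bcl2fastq 2.17, aligned with STAR 2.5.2b to mm10 and counted with featureCounts 1.5.0, per the submitters' processing notes. For the annotation, the strand setting and multi-mapping or paired reads, the settings were not given in the sources used here. Of counts between 1 and 20, 77.9% were even, and of member counts above 20, 51.2%; counts halved and rounded up were therefore an alternative.

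Genes passing filterByExpr were fitted with edgeR 4.0.16 in R 4.3.3 (TMM scaling, quasi-likelihood test, two-sided, Benjamini-Hochberg adjustment over all genes tested, threshold 0.05), within each tissue, over all 16 libraries for the difference between tissues, and within each genotype for adipocytes against liver. SE is the log2 difference over the square root of F. CPM is TMM-scaled within each fit, so that levels are compared within a fit. Levels per kilobase use CPM scaled over 16 libraries and a transcript length per gene. That length is the median over protein-coding transcripts tagged as principal in the basic set of GENCODE M21. Catalytic ratios were compared with an exact permutation test. DESeq2 1.42.0, limma-voom 3.58.1, other scalings, filters, covariates and left-out libraries were alternatives. The fits were also run on counts simulated from their own dispersions with few changed genes, which cannot check the choice of scaling. The outcome is not given here. Both tissues of a mouse share its number in the labels, hence the block by mouse; deviations of its 2 libraries correlated between -0.0592 and 0.0916 across genes. No 2 replicates agreed within sampling noise.

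The members, gene lists and named genes were chosen with earlier results of these data known. Named members were those with the smallest p by genotype in adipocytes (12), by genotype in liver (4) and in the test between tissues (4), the 4 highest and 4 lowest in wild-type adipocytes against liver, the catalytic subunits Psmb5, Psmb6 and Psmb7, Psmd14, Psmd4, the chaperones Psmd5, Psmd9 and Psmd10, and Psma8 and Psmb11 as counts. Named besides were Psmb8, Psmb9, Psmb10, Psme1, Psme2, Nfe2l1, Trib1 and, per tissue, the 4 other pathway genes with the smallest p by genotype. Of skeletal muscle markers 1 of 3 tested was called lower in knockout-labelled adipocytes.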

Additional observations from a re-analysis of the deposited data

Results flagged for a closer look

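In 6 of 138 groups of 4 libraries 1 library lay far from the other 3, where chance gives about 1 in 20 groups. Psmd4 was 164 CPM in wild-type adipocytes of WT-1136, and 115 to 123 CPM in the other 3. Psmb8 was 24.8 CPM in wild-type liver of WT-1153, and 15.6 to 16.9 CPM in the other 3. Nfe2l3, a relative of Nfe2l1, was 1.21 CPM in knockout-labelled liver of KO-1151, and 0.803 to 0.853 CPM in the other 3. Psmd12 was 104 CPM in knockout-labelled liver of KO-1137, and 95.2 to 96.2 CPM in the other 3. Psma6 was 118 CPM in wild-type liver of WT-1138, and 104 to 105 CPM in the other 3. The log2 ratio of core to regulatory level was 0.77 in knockout-labelled adipocytes of KO-1152, and 0.64 to 0.65 in the other 3.

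The genotype effect differed between adipocytes and liver, by edgeR's test of the difference, for 13 genes. These are the 10 subunits called in that test and the 3 immunoproteasome genes. Of all genes tested 10.4% were called in the higher and 8.73% in the lower direction. The adipocyte effect less the liver effect was 0.83 for Psmd8, 0.47 for Psmc1, 0.48 for Psmd5, 0.41 for Psmb7, 0.41 for Psmd14, 0.50 for Psmd2, 0.34 for Psmd12, 0.39 for Psmd1, 0.43 for Psma7 and 0.37 for Psmd3 on the log2 scale. It was -1.36 for Psmb8, -1.26 for Psmb9 and -0.73 for Psmb10.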

How the results depend on the processing

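Of 346 alternative values of the main summaries 314 stayed within 1.5 times the count or 1 SD and 32 did not; of 1850 for named genes 1699 kept direction and side of the threshold, 81 lost and 20 gained a call, and 50 changed sign. The causes were not tested. Counts of calls under the alternatives stand here without the share of all genes called in the same fit. With library totals, calls by genotype in adipocytes were 2 (median 0.087) and for the difference between tissues 1 (median 0.049); adipocytes against liver gave 15 higher, 12 lower (median 0.040) in knockout-labelled and 14 higher, 9 lower (median 0.054) in wild-type mice. Signs then turned in adipocytes for Psmb6 (-0.040), Psmd9 (-0.16), Psmd10 (-0.083), Psme2 (-0.060) and Nfe2l1 (-0.11); for the difference between tissues for Psmb6 (-0.086), Psmd10 (-0.030), Psme1 (-0.0049), Psme2 (-0.19) and Nfe2l1 (-0.15); between tissues in knockout-labelled mice for Psmb7 (0.24), Psmb8 (0.20) and Psme2 (0.40), and in wild-type mice for Psmd7 (0.63), Psmb7 (0.062), Psmd4 (0.33), Psmd5 (0.43), Psmb10 (0.42) and Psme2 (0.59). The stromal covariate left 1 call and turned Psme2 (-0.039), Nfe2l1 (-0.060) and Trib1 (-0.42). The 76-day mice left 1 call, gave 0.13 for the core less the regulatory median in liver and -0.047 for liver Nfe2l1. With the replicate block by mouse, 4 calls were left for the difference between tissues; the block moved no other count of subunits by over 1.5 times. Without the low-count filter 1 subunit was higher in wild-type adipocytes than liver, Psmd7 stood there at 0.011, and Psme2 in knockout-labelled mice at 0.015. With means over members the core less regulatory difference between tissues was -0.41 in wild-type mice; per length it was -0.44 in knockout-labelled and -0.33 in wild-type mice. Without the 3 chaperones it was -0.47 in knockout-labelled mice, and with merged exon lengths (chosen after seeing the data) -0.63 in wild-type mice.

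Leaving out 1 library, adipocyte calls ran from 9 to 21, calls for the difference between tissues from 2 to 18, the core less regulatory median from -0.0082 to 0.093 in liver and from -0.69 to -0.58 between tissues in knockout-labelled mice. Signs turned within these ranges for adipocyte Psmd9 (-0.037 to 0.10), liver Psmb7 (-0.012 to 0.039), Psmd10 (-0.15 to 0.017), Psmb6 (-0.035 to 0.078), Psmd14 (-0.044 to 0.045), Psmb9 (-0.017 to 0.23) and Nfe2l1 (-0.031 to 0.093), the tissue difference of Psme2 (-0.017 to 0.14), wild-type Psmd7 (-0.076 to 0.031) and Psmd1 (-0.010 to 0.10), and knockout-labelled Psme2 (-0.056 to 0.022) against liver. No subunit was called by genotype in liver by edgeR, DESeq2 or limma-voom in the 18 alternatives run. Low counts limit Psma8 and Psmb11; for the other members 4 mice a group limit precision.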
